A study of Mus musculus with 4 samples.

Results

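The 10 genes described here handle lipid in macrophages, and they were followed in the macrophages and blood vessel cells of the mouse colon: Lpl, Fabp4, Fabp5, Cd36, Plin2, Pparg, Abca1, Abcg1, Apoe and Trem2. They were chosen by name, 10 of the 32285 features in the tables, and each was found as a single row. Cells were selected for CD11b, a myeloid integrin, at steady state from colon lamina propria or from colon solitary isolated lymphoid tissues (SILT), and 1 single-cell library was made for each tissue of Csf2+/+ (wild-type) and Csf2-/- mice. Csf2 encodes the cytokine GM-CSF. All 4 groups also carried 1 copy each of the CX3CR1-GFP and CCR2-RFP reporter alleles, so wild type here refers to Csf2 alone. The design text gives 5 mice, and whether cells of several animals were pooled in a library is not stated. With 1 library per group there is no replicate check of any difference: no p-value was computed, and each interval is a 95% interval for counting error only.

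Macrophages take up lipoproteins and dying cells, and they must store, burn or export the lipid that comes with them. Fatty acids enter through scavenger receptors and travel on small binding proteins, surplus lipid is kept in droplets, and cholesterol leaves through ABC transporters onto apolipoproteins, under the control of the nuclear receptors LXR and PPARγ. Capillary endothelium uses several of the same proteins for another task, carrying fatty acids from the blood into the tissue. A gene of this set found in a gut digest can therefore come from either cell type.

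The libraries held 5128 barcodes (50017502 UMIs) for wild-type lamina propria, 2158 (19225644) for Csf2-/- lamina propria, 8041 (67656927) for wild-type SILT and 2578 (21225800) for Csf2-/- SILT. Before filters 37 barcode strings occurred in more than 1 library, 19 of them shared by the 2 wild-type libraries. After filters 16341 cells remained, in 32 clusters. Csf2 gave 2 and 24 UMIs in wild-type lamina propria and wild-type SILT and 0 in both Csf2-/- libraries, where a count of 0 allows up to 3 UMIs. In lamina propria this is little check of the deletion. Clusters were named from fixed marker genes, the 10 genes and all pathway genes below being kept out of the clustering. Macrophage-like cells numbered 1119, 396, 1168 and 487, and endothelial-like cells 814, 264, 1513 and 292, in wild-type lamina propria, Csf2-/- lamina propria, wild-type SILT and Csf2-/- SILT, the order used for every run of 4 values. Itgam, which encodes CD11b, stood at 403, 296, 271 and 282 CPM (UMIs of the gene per 1000000 UMIs of the class) in macrophage-like cells. In endothelial-like cells it stood at 4.18, 0.43, 1.81 and 1.57 CPM. The endothelial-like cells thus had little RNA of the marker used for selection, and its protein was not measured here.

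For orientation, the 250 bases before an annotated transcript start are shown for Cd36 and Abca1, which moved together across cell classes, and for Trem2, which kept closest to macrophages. They are RefSeq promoter windows on mouse build GRCm38.p6, written 5′ to 3′ on the gene's strand. The Cd36 window precedes a start that lies inside the gene, whose annotated 5′ end on that strand is at 17888801. Capitals mark matches to a nuclear receptor half-site (AGGTCA) or an E-box (CACGTG) on either strand, motifs chosen for display after their matches, and those of other motifs, had been seen.
Cd36, chr5:17835897-17836146, minus strand: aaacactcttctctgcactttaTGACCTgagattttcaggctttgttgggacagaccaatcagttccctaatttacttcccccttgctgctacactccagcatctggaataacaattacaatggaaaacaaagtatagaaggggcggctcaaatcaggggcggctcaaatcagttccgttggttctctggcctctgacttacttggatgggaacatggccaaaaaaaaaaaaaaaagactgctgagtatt
Abca1, chr4:53159896-53160145, minus strand: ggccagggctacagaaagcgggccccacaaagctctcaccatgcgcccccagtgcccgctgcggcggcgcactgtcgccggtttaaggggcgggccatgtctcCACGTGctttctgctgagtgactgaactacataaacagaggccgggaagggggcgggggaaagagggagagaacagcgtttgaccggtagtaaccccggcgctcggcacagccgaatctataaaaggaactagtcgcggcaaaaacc
Trem2, chr17:48346151-48346400, plus strand: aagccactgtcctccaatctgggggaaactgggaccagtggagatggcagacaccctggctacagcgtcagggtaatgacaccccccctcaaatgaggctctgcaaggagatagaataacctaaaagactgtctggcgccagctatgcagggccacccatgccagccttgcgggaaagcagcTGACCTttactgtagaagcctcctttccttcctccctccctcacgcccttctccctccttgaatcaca

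The Cd36 match began 228 bases and the Trem2 match 68 bases before the start, both as the reverse complement, and the Abca1 E-box began 147 bases before it. Such matches are common: 14.0% of the 32851 windows in the table held AGGTCA, and 6.02% held CACGTG. Exact repeats of the half-site in the same direction were also searched for. At 1 base apart (DR1, the arrangement PPARγ binds with RXR) they were in 0.0335% of windows. At 4 bases apart (DR4, that of LXR with RXR) they were in 0.0152%. Both were in 0 of the 10 windows of the 6 genes found there. Repeats with any changed letter were not searched for, so the 0 does not show that these windows lack such a site. The half-site is part of both repeats. These are letter matches only.

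Set between macrophage-like and endothelial-like cells alone, the 10 genes divided into genes higher in the first, genes higher in the second and genes of both. In all 4 libraries Lpl, Apoe and Trem2 were at least 2-fold higher in macrophage-like than in endothelial-like cells, and Fabp4 and Fabp5 were at least 2-fold lower. Among all genes at 10 CPM or more in either class, 16.4%, 16.2%, 14.7% and 15.2% were at least 2-fold higher in macrophage-like cells and 20.6%, 23.4%, 23.9% and 25.9% at least 2-fold lower. The other 5 genes did not keep a 2-fold difference in every library. The plot of levels by cell class shows the 10 genes side by side.

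**Figure D1:**
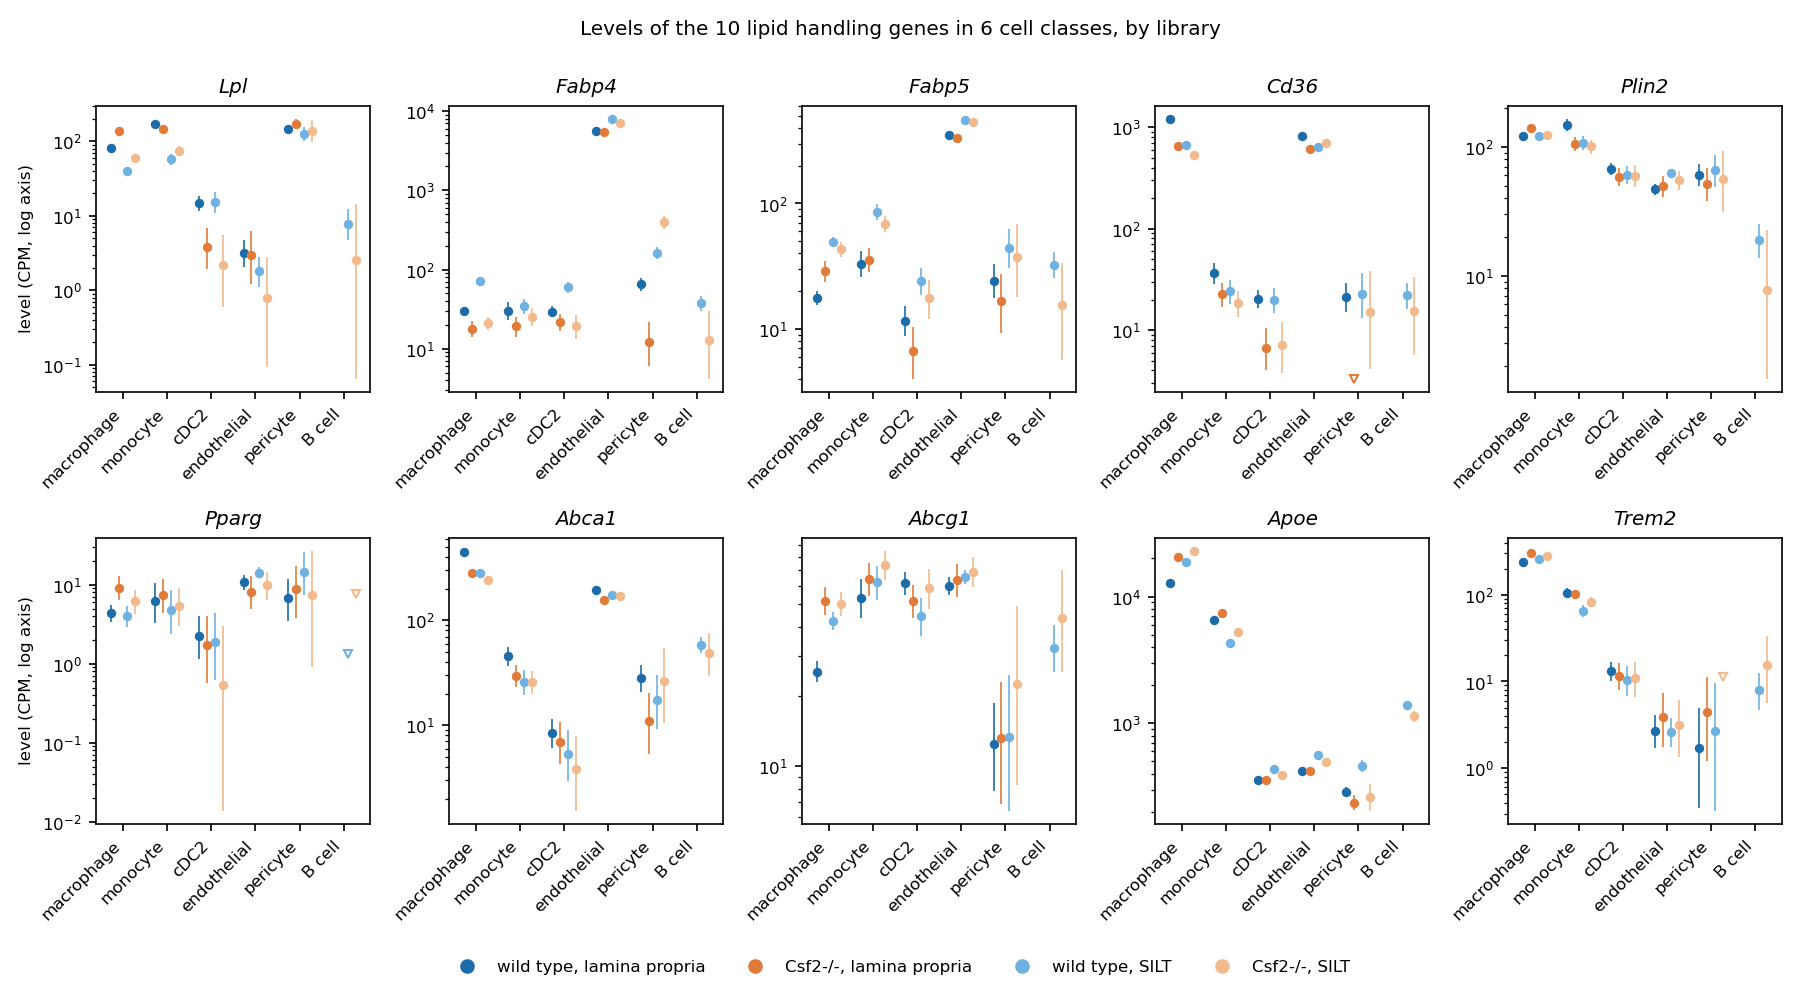
Level of each of the 10 genes in 6 cell classes (CPM, log axis). Each point is 1 library, bars are exact 95% Poisson intervals for counting error, and open triangles stand at the level of 3 counts where no UMI was found. Among these 6 classes Trem2 and Apoe are highest in macrophage-like cells and Fabp4 and Fabp5 in endothelial-like cells, and Cd36 is at 527 to 1194 CPM in both.

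Trem2 encodes a lipid-sensing receptor of macrophages. Its level was 238, 305, 256 and 282 CPM in macrophage-like cells and 2.70, 3.87, 2.63 and 3.14 CPM in endothelial-like cells. The ratio was 88.2 in wild-type lamina propria (interval 58.1 to 141) and between 78.8 and 97.4 in the other 3 libraries. Macrophage-like cells held 80.3%, 73.5%, 76.3% and 76.1% of all Trem2 UMIs. Monocyte-like cells had 65.1 to 105 CPM, below every macrophage-like value.

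Apoe, which carries cholesterol out of cells, was at 12801, 20540.4, 18645 and 22910.0 CPM in macrophage-like cells, against 419.9, 420.5, 557 and 498 CPM in endothelial-like cells. Macrophage-like cells were 30.5, 48.9, 33.4 and 46.0 times higher. Unnamed SILT cells with few UMIs, led by Cst7 and Il22ra2, overlapped the macrophage-like level at 17156 and 23906 CPM. With every cell thinned to 1000 UMIs, 45.5% of wild-type SILT B cell-like cells had an Apoe UMI, against 98.5% of macrophage-like and 40.8% of endothelial-like cells there. In wild-type SILT, the only library compared in this way here, the thinned share in endothelial-like cells was thus at or below that in B cell-like cells. Whether the Apoe UMIs of endothelial-like cells came from those cells was not tested. Without thinning the shares were 77.4%, 100% and 89.8% at median depths of 3300.0, 8570.5 and 6290.0 UMIs.

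Lpl, the lipase that frees fatty acids from lipoproteins, was at 81.5, 136, 40.4 and 59.6 CPM in macrophage-like cells and at 3.19, 3.01, 1.81 and 0.79 CPM in endothelial-like cells (26, 7, 20 and 2 UMIs). Its ratio was 25.5 in wild-type lamina propria (17.3 to 39.2) and 22.3 in wild-type SILT (14.3 to 36.9). Other classes were higher than macrophage-like cells in each library. Pericyte-like cells had 145, 172, 126 and 139 CPM, and monocyte-like cells 170, 145, 57.2 and 74.9 CPM. Fibroblast-like cells had 402 CPM in wild-type lamina propria, 162 CPM in wild-type SILT and 317 CPM in Csf2-/- SILT. Macrophage-like cells were also not its main source in wild type. An unnamed cluster led by Retnla, Lpl and Fn1 held 58.1% of the Lpl UMIs of wild-type lamina propria and 40.8% of those of wild-type SILT. Lpl stood there at 2463 and 1844 CPM over 103 and 51 cells, with monocyte markers too few to name it. The Csf2-/- libraries had 5 and 4 cells of that cluster, too few for a level, and macrophage-like cells then held 34.2% and 32.2% of the Lpl UMIs, against 15.7% and 15.8% in wild type.

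Fabp4, the fatty acid binding protein of capillary endothelium, was at 5593, 5524, 7944 and 7149.55 CPM in endothelial-like cells. Unnamed clusters that hold endothelial markers overlapped this range, at up to 8398 CPM. In macrophage-like cells it was at 29.7, 18.0, 71.9 and 20.9 CPM, which is 0.531%, 0.325%, 0.906% and 0.292% of the endothelial level. A set of 10 genes listed as endothelial-only, such as Cdh5 and Kdr, was measured in the same way. Their median in macrophage-like cells was 0.681%, 0.494%, 0.760% and 0.266% of the endothelial level, with ranges of 0.491% to 1.07%, 0.185% to 0.910%, 0.629% to 1.77% and 0% to 0.615%. Fabp4 lay inside those ranges in each of the 4 libraries. After thinning to 1000 UMIs, 3.31%, 1.53%, 5.79% and 2.08% of macrophage-like cells had a Fabp4 UMI, against 4.01% and 2.06% of B cell-like cells of wild-type and Csf2-/- SILT. The unthinned shares were 28.2%, 15.7%, 30.1% and 17.2% for macrophage-like cells and 13.8% and 4.95% for B cell-like cells. In wild-type SILT 10 of the 1168 macrophage-like cells held 46.2% of the Fabp4 UMIs, and a single cell held 206 of 806.

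Fabp5, a close relative, lay above that range. It was at 351, 332, 459.7 and 447 CPM in endothelial-like cells and at 17.7, 28.7, 49.4 and 43.1 CPM in macrophage-like cells. That is 5.05%, 8.65%, 10.8% and 9.63% of the endothelial level, above the whole range of the endothelial-only genes in every library. Endothelial-like cells were not the highest class: the unnamed Il22ra2 cells reached 819 and 709.6 CPM in wild-type and Csf2-/- SILT, and migratory DC-like cells 371 to 636 CPM. The plot of carry-over sets Fabp4 and Fabp5 beside the endothelial-only genes.

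**Figure D2:**
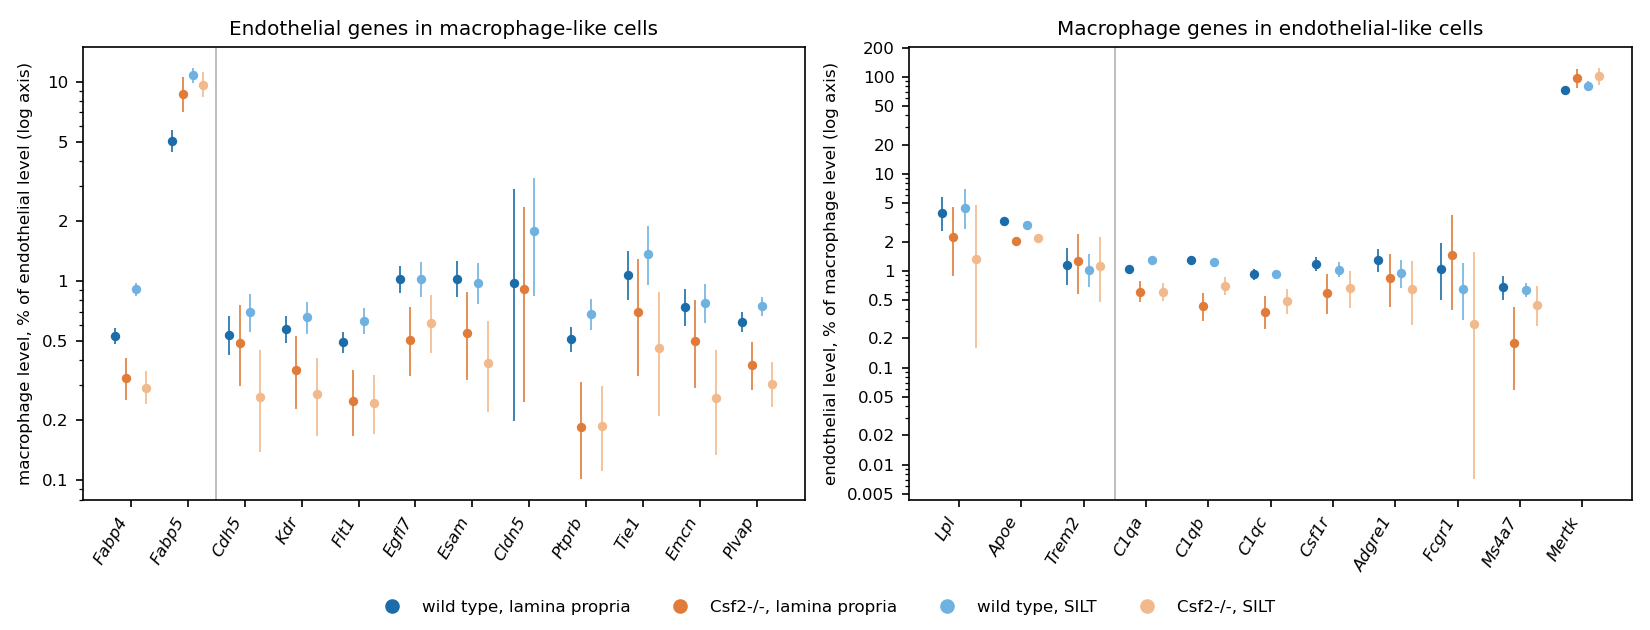
Left, level in macrophage-like cells as a percentage of the level in endothelial-like cells (log axis) for Fabp4, Fabp5 and 10 endothelial-only genes; right, the reverse for Lpl, Apoe, Trem2 and 8 of the 9 macrophage genes. Points are libraries with exact 95% intervals for counting error, and Cldn5 in Csf2-/- SILT, at 0%, has no point; Fabp4 lies among the endothelial-only genes at 0.292% to 0.906%, Fabp5 above them at 5.05% to 10.8%.

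The reverse measure used 9 genes listed as macrophage-only. Their median in endothelial-like cells was 1.18%, 0.610%, 1.02% and 0.642% of the macrophage level. One of them, Mertk, was nearly as high or as high in endothelial-like cells (72.3% to 102% of the macrophage level) and so is no macrophage-only gene here. Trem2 stood at 1.13%, 1.27%, 1.03% and 1.12%, and Apoe at 3.28%, 2.05%, 2.99% and 2.17%. Apoe thus lay above every macrophage-only gene except Mertk in each library, while Trem2 lay among them. The thinned shares given with Apoe above were no higher in endothelial-like than in B cell-like cells of wild-type SILT. The source of the Apoe UMIs in endothelial-like cells was not tested.

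Cd36, the scavenger receptor that brings in fatty acids and oxidised lipoprotein, belonged to both cell types. Macrophage-like cells had 1194, 649, 667 and 527 CPM, and endothelial-like cells 827, 606, 632 and 699 CPM. The macrophage level was 1.44 times the endothelial one in wild-type lamina propria (1.40 to 1.49) and 0.753 times in Csf2-/- SILT (0.710 to 0.80). On the CPM scale the order of the 2 sources thus turned between these libraries. The median log2 ratio over all genes was -0.19 and -0.35 in them. TMM scaling, with factors of 0.876 for macrophage-like and 1.14 for endothelial-like cells in Csf2-/- SILT, brings the ratio there nearer to 1. The macrophage-like sum also mixes clusters of unlike Cd36 level, given below. Monocyte-like cells had 18.3 to 36.4 CPM. Within endothelium the level differed by cluster, from 1047 to 1561 CPM in the cluster led by Gja5 and Sema3g to 286 CPM in wild-type SILT for the cluster led by Apln and Enpp6.

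Abca1 and Abcg1 export cholesterol, and both are textbook LXR targets, and their order between the 2 cell types was opposite. Abca1 was higher in macrophage-like cells (449.75, 281, 281 and 244 CPM) than in endothelial-like cells (193, 155, 173 and 169.6 CPM), at 2.33, 1.82, 1.63 and 1.44 times their level. Abcg1 was lower in macrophage-like cells (25.6, 51.6, 42.4 and 50.2 CPM) than in endothelial-like cells (59.97, 63.7, 65.5 and 69.1 CPM), though in Csf2-/- lamina propria the interval of the ratio (0.652 to 1.01) included 1. Over 57 sums of 1 class in 1 library, the level of Abca1 followed that of Cd36 (Pearson r = 0.83 on the log2 scale), and Apoe followed Trem2 (r = 0.83). These sums share libraries and depth, and the correlations are a description.

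Plin2, which coats lipid droplets, was at 121, 139, 121 and 123 CPM in macrophage-like cells and 46.8, 49.5, 63.1 and 55.4 CPM in endothelial-like cells. Its highest level was in an unnamed cluster led by Cd300e, Treml4 and Adgre4, at 164 to 192 CPM. The same cluster was highest for Pparg, the nuclear receptor PPARγ, at 95.3, 73.2, 66.0 and 53.4 CPM (16 to 24 UMIs in each library). In macrophage-like cells Pparg was scarcely detected, at 4.40, 9.24, 4.02 and 6.21 CPM (63, 36, 45 and 33 UMIs). Endothelial-like cells had 10.8, 8.18, 14.2 and 9.82 CPM.

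By the likeness of their pattern over the same 57 sums, the genes closest to Trem2 were Adgre1, Fcgr1 and Csf1r (r = 0.95, 0.94 and 0.93), and Msr1 and C1qb were among the 3 closest to Apoe (r = 0.91 and 0.91). Kdr, Cyyr1 and Ramp2 were closest to Fabp4 (r = 0.97, 0.96 and 0.96). Cd36 was most like Sec14l1, Abca1 and Pltp (r = 0.87, 0.83 and 0.83), and Abca1 most like Sec14l1, Trpv4 and Cd36 (r = 0.86, 0.84 and 0.83). For Lpl the nearest were Ecm1, Zfp703 and Myof (r = 0.76, 0.73 and 0.70), for Fabp5 they included Ndufa8 and AW112010 (r = 0.79 and 0.78), for Plin2 Dnase1l1, Plxnb2 and Vps26a (r = 0.84, 0.77 and 0.77), for Abcg1 Fxyd5, Rin3 and Stk10 (r = 0.79, 0.77 and 0.76) and for Pparg Zfyve9, Pon2 and Cask (r = 0.70, 0.66 and 0.64).

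The macrophage-like cells fell into 3 clusters, from which the lipid genes had been kept out, and Cd36, Abca1, Abcg1 and Apoe differed between them. The first was led by Lyve1, Cbr2, Folr2 and Fcna, the second by the chemokine genes Ccl4, Ccl3 and Ccl12 with Cd14, and the third by Mmp13, H2-M2, Gbp2b and Lag3. Cd36 was at 1615, 1296, 1217 and 1144 CPM in the Lyve1 cluster, at 263, 248, 179 and 171 CPM in the Ccl3 cluster and at 406, 253, 244 and 258 CPM in the Mmp13 cluster. No value of the Lyve1 cluster overlapped one of the other clusters. Abca1 followed the same order, at 384 to 555 CPM in the Lyve1 cluster against 104 to 186 CPM and 196 to 309.5 CPM.

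Abcg1 ran the other way, at 11.97, 24.9, 15.6 and 28.5 CPM in the Lyve1 cluster, 47.4, 66.9, 67.2 and 58.6 CPM in the Ccl3 cluster and 66.7, 69.6, 62.4 and 61.5 CPM in the Mmp13 cluster. Apoe was highest in the Mmp13 cluster, at 25300 to 40226 CPM (25299.7 in wild-type lamina propria), against 9742 to 16355 CPM in the other clusters. Lpl was highest in the Ccl3 cluster in each library, at 186, 241, 64.9 and 167 CPM. Trem2 lay between 205 and 341 CPM over all 12 sums of 1 cluster in 1 library.

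**Figure D3:**
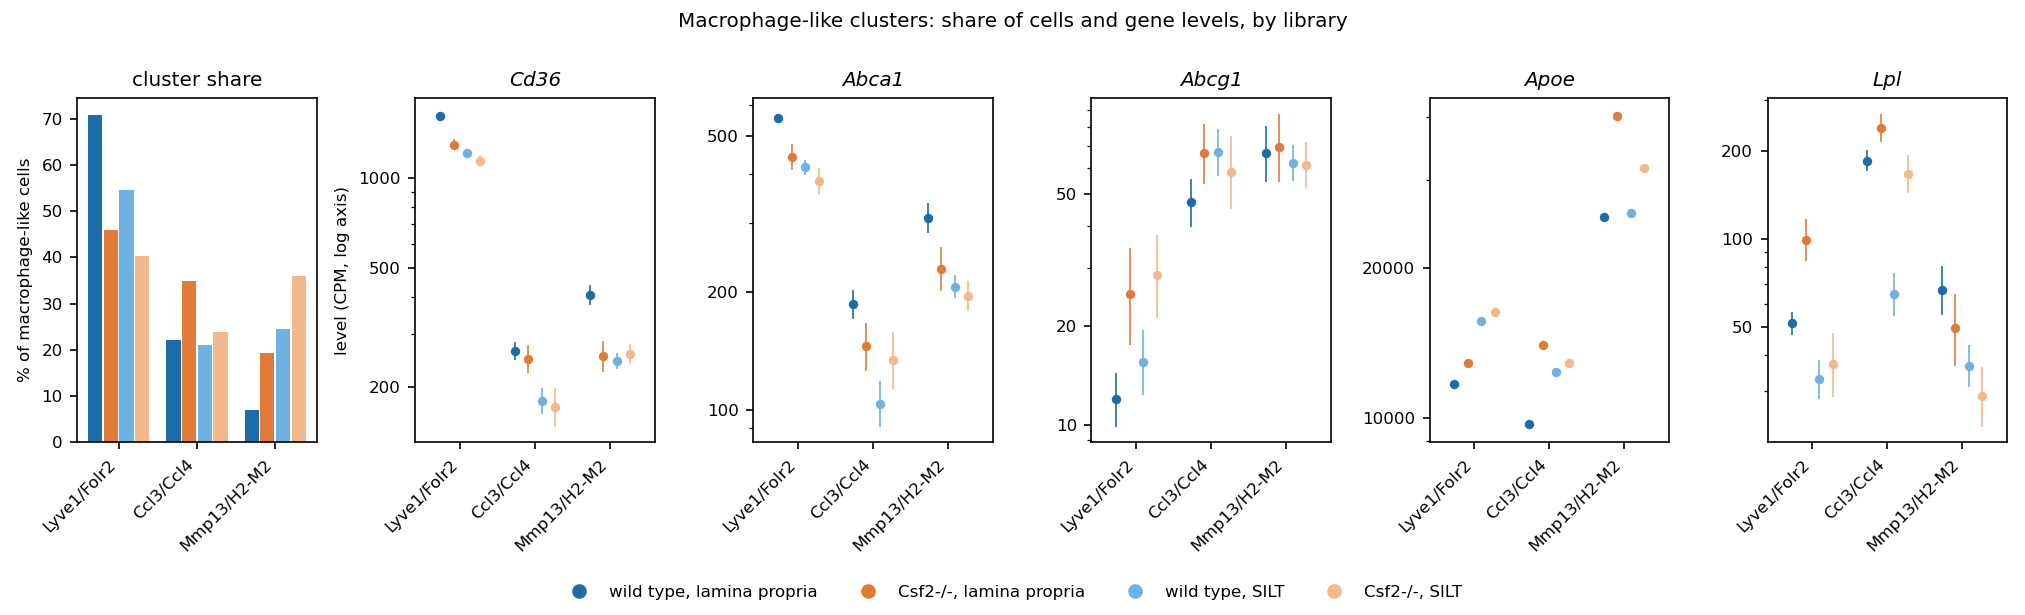
First panel, share of macrophage-like cells in each of the 3 macrophage-like clusters, by library (bars from 0); other panels, levels of Cd36, Abca1, Abcg1, Apoe and Lpl in those clusters (CPM, log axis, exact 95% Poisson intervals for counting error). Cd36 and Abca1 are highest and Abcg1 lowest in the Lyve1/Folr2 cluster, whose share of cells is largest (70.9%) in the wild-type lamina propria library and smallest (40.2%) in the Csf2-/- SILT library.

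The balance of these clusters differed between libraries. The Lyve1 cluster held 70.9%, 46.0%, 54.5% and 40.2% of macrophage-like cells, the Ccl3 cluster 22.2%, 34.8%, 21.1% and 23.8%, and the Mmp13 cluster 6.97%, 19.2%, 24.4% and 35.9%. Any level summed over macrophage-like cells therefore moves with this balance as well as with the level per cell. Values within clusters or at equal cluster weights are given below for those of the 10 genes that passed 1.5-fold between groups, and not for the pathway lists.

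In lamina propria 8 of the 10 genes differed by 1.5-fold or more between Csf2-/- and wild-type macrophage-like cells. Abcg1, Pparg, Lpl, Fabp5 and Apoe were higher in Csf2-/-, and Cd36, Fabp4 and Abca1 were lower. Of all genes at 10 CPM or more in either sum, 4.50% were that much higher and 7.94% that much lower. Pparg is below that level, so that among the 9 genes tested on the same terms 4 were higher and 3 lower. With the 3 clusters given equal weight, 0 of the 10 genes differed by 1.5-fold. Taking cells by C1q and endothelial UMIs in place of clusters gave 3 genes, stricter cell filters (500 genes, 5% mitochondrial UMIs) gave 5, and a 2-fold threshold gave 2.

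Cd36 was at 1194 CPM in wild type and 649 CPM in Csf2-/-, a ratio of 0.544 (0.521 to 0.567), and Abca1 at 449.75 and 281 CPM, a ratio of 0.626 (0.586 to 0.667). Within the clusters their ratios were nearer to 1, with log2 ratios of -0.32, -0.09 and -0.68 for Cd36 and -0.32, -0.36 and -0.43 for Abca1 in the Lyve1, Ccl3 and Mmp13 clusters. With equal cluster weights the log2 ratio of Cd36 was -0.35 and that of Abca1 -0.36, against -0.88 and -0.68 over all macrophage-like cells. Both remained below 0 in every cluster, but for Cd36 in the Ccl3 cluster (-0.09) the difference was within counting error. Endothelial-like cells had a Cd36 level of 606 against 827 CPM (0.733 times, short of 1.5-fold) and an Abca1 level of 155 against 193 CPM.

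Abcg1 was at 25.6 CPM in wild type and 51.6 CPM in Csf2-/-, a ratio of 2.02 (1.69 to 2.40), opposite in direction to Abca1. It was higher in the Lyve1 cluster (log2 ratio 1.06) and the Ccl3 cluster (0.50), with a log2 ratio of 0.06 in the Mmp13 cluster. With equal cluster weights it was 0.36. In cells thinned to 1000 UMIs, which left 32 and 10 Abcg1 UMIs, the log2 ratio was -0.16.

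Apoe went from 12801 to 20540.4 CPM, a ratio of 1.60 (1.59 to 1.62). Its log2 ratio was 0.14, 0.52 and 0.67 in the Lyve1, Ccl3 and Mmp13 clusters and 0.52 with equal weights, so the Mmp13 cluster, already the highest, also showed the largest difference. Apoe in endothelial-like cells was the same in the 2 libraries to within counting error, at 419.9 and 420.5 CPM. Trem2 was 1.28 times higher (1.20 to 1.37) and lay above 1 in each cluster, with log2 ratios of 0.51, 0.21 and 0.28. Plin2 was 1.15 times higher (1.04 to 1.27).

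Lpl was at 81.5 CPM in wild type and 136 CPM in Csf2-/-, a ratio of 1.67 (1.51 to 1.85), with log2 ratios of 0.96, 0.38 and -0.43 in the Lyve1, Ccl3 and Mmp13 clusters. When macrophages were taken by C1q UMIs instead, the sign turned (log2 ratio -0.54). Those gated cells included 26 cells of the Retnla and Lpl cluster in wild type, with 44.3% of the gated Lpl UMIs, and 3 in Csf2-/- with 16.0%. Fabp5 went from 17.7 to 28.7 CPM, a ratio of 1.62 (1.29 to 2.03), and its clusters disagreed (1.19, -0.80 and 1.25). Pparg was 2.1 times higher (1.35 to 3.21), on 36 and 63 UMIs and below 10 CPM in both, with log2 ratios of -0.82, 1.01 and 0.23 in the 3 clusters. Those cluster ratios rest on only 2, 21 and 13 UMIs in Csf2-/- and 23, 23 and 17 UMIs in wild type.

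Fabp4 in macrophage-like cells was 0.605 times the wild-type level (0.463 to 0.781), while in endothelial-like cells it was 0.988 times. Its log2 ratios in the Lyve1, Ccl3 and Mmp13 clusters were -0.56, -0.66 and -0.38. The endothelial-only genes, at medians of 0.681% and 0.494% of their endothelial level, moved the same way in macrophage-like cells. Monocyte-like cells differed in 3 of the 10 genes, all lower in Csf2-/- lamina propria: Cd36 (22.4 against 36.4 CPM), Abca1 (29.5 against 45.5 CPM) and Fabp4 (19.1 against 30.2 CPM). In that class 7.92% of all genes were lower by 1.5-fold and 5.49% higher. Endothelial-like cells had 0 of 8 tested genes past 1.5-fold, against 4.92% of all genes higher and 5.35% lower.

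In SILT the same genotype comparison gave 2 of 10 genes, Pparg at 1.55 times (0.955 to 2.48, on 33 and 45 UMIs) and Fabp4 at 0.290 times (0.236 to 0.354). Pparg is below 10 CPM in both libraries. Among the 9 genes at 10 CPM or more 0 were higher and 1 was lower, against 6.32% and 2.53% of all genes at that level. The macrophage-like Fabp4 level was 71.9 CPM in wild type and 20.9 CPM in Csf2-/-, and the median of the endothelial-only genes went from 0.760% to 0.266% of their endothelial level between the same libraries. Without any macrophage-like cell that held an endothelial-only UMI, the log2 ratio of Fabp4 was -0.79 in place of -1.79. Within the Lyve1, Ccl3 and Mmp13 clusters it was -1.78, -1.01 and -1.76, and that of Pparg 1.06, 0.49 and 0.26. The Pparg values rest on only 5, 7 and 21 UMIs in Csf2-/- and 7, 10 and 28 UMIs in wild type.

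Cd36, Abca1, Apoe and Abcg1, past 1.5-fold in lamina propria, were short of it in SILT. So was Fabp5, which was higher in Csf2-/- lamina propria but had a log2 ratio of -0.20 in SILT. Without cells holding an endothelial-only UMI the SILT log2 ratio of Fabp5 was 0.11. Cd36 was at 527 against 667 CPM, a ratio of 0.790 (0.756 to 0.826), Abca1 at 244 against 281 CPM (0.869, 0.814 to 0.927), Apoe at 22910.0 against 18645 CPM (1.23, 1.22 to 1.24) and Abcg1 at 50.2 against 42.4 CPM (1.18, 1.02 to 1.38). Lpl was at 59.6 against 40.4 CPM (1.47, 1.27 to 1.71), a direction that turned with the choice of cells: its log2 ratio of 0.56 was -0.23 with doublets kept, -0.26 at Leiden resolution 0.5 and -0.09 with the C1q and endothelial UMI gates. In the Ccl3 cluster Lpl was at 167 against 64.9 CPM. It was at 37.2 against 32.9 CPM in the Lyve1 cluster and at 28.9 against 36.7 CPM in the Mmp13 cluster. Of the 317 Lpl UMIs of Csf2-/- macrophage-like cells, 10 cells held 56.2% and a single cell held 75. Endothelial-like cells again had 0 of 8 tested genes past 1.5-fold (10.3% of all genes higher, 3.52% lower), and monocyte-like cells 0 of 9 (13.2% higher, 5.09% lower). Whether the genotype ratio differs between tissues cannot be tested with 1 library per group.

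**Figure D4:**
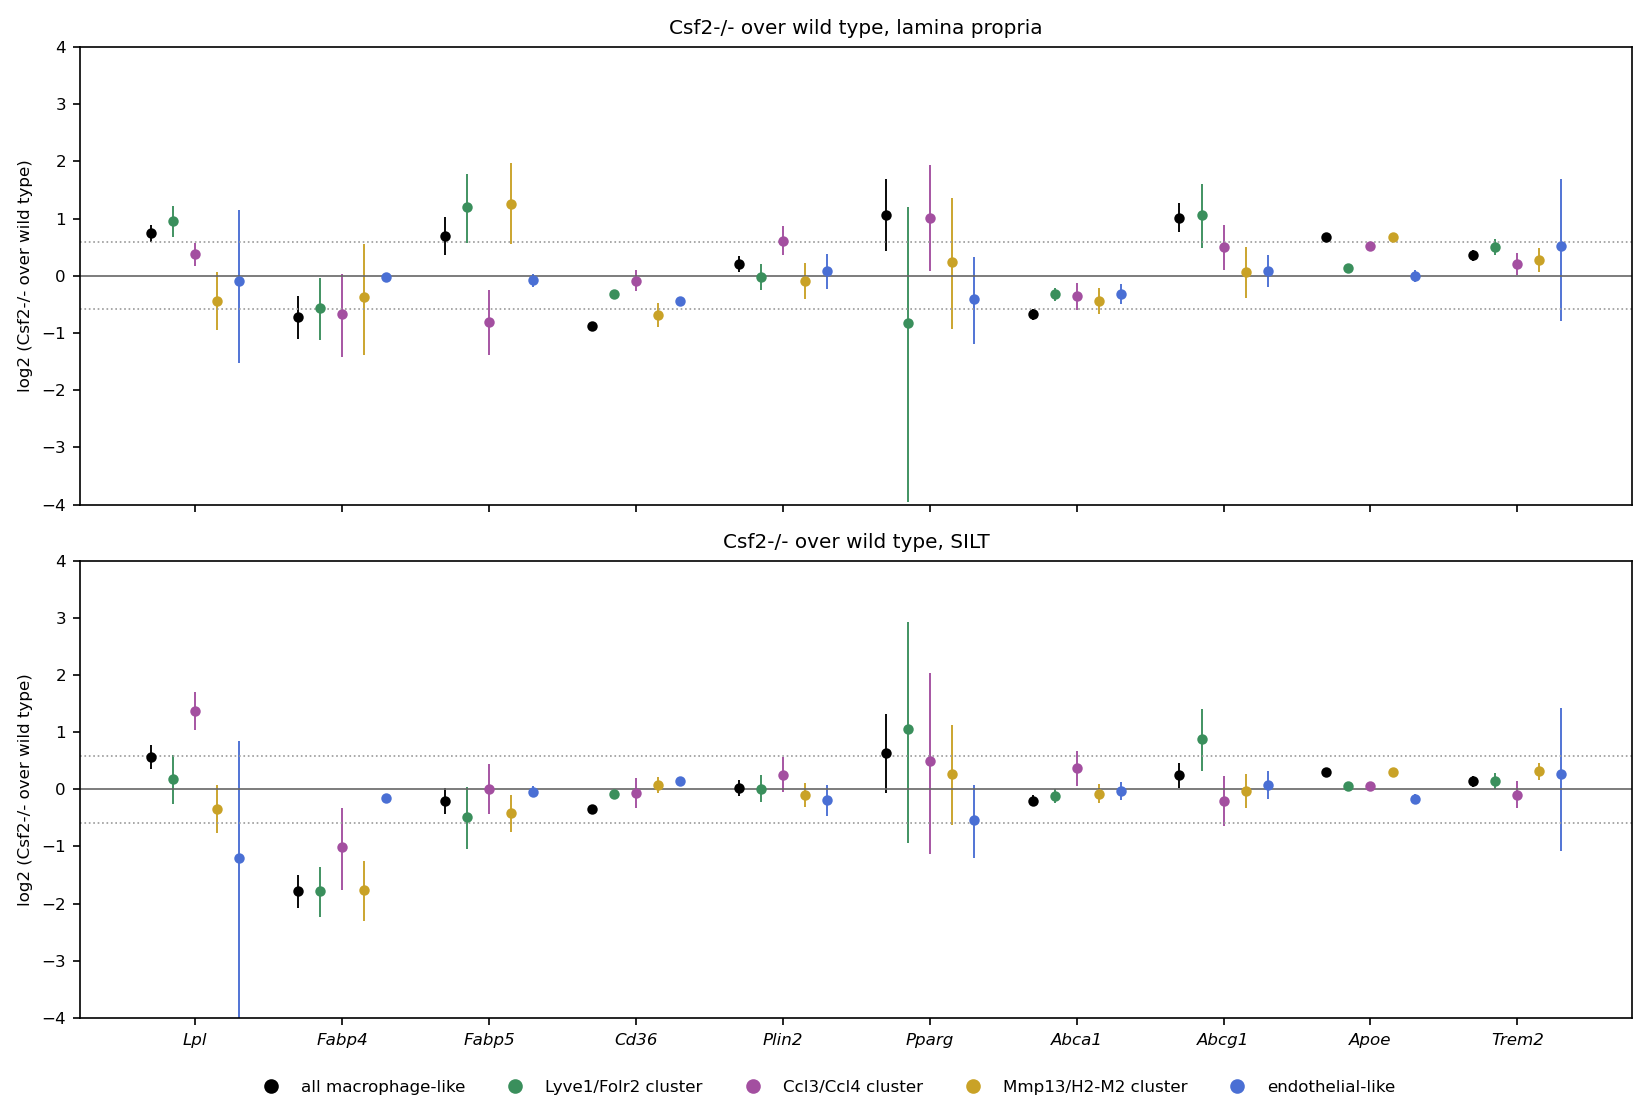
Log2 ratio of Csf2-/- over wild type for each of the 10 genes in lamina propria (top) and SILT (bottom), over all macrophage-like cells (black), within the 3 macrophage-like clusters and in endothelial-like cells. Bars are exact 95% intervals for counting error and dotted lines mark 1.5-fold; in lamina propria the black points of Cd36 and Abca1 lie below those of the Lyve1 cluster, at -0.88 and -0.68 against -0.32 and -0.32.

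Tissue was compared within each genotype. In wild type 6 of the 10 genes differed by 1.5-fold between SILT and lamina propria macrophage-like cells. Fabp5 (49.4 against 17.7 CPM, 2.79 times, 2.40 to 3.25), Fabp4 (71.9 against 29.7 CPM, 2.42 times, 2.15 to 2.73) and Abcg1 (42.4 against 25.6 CPM, 1.66 times, 1.44 to 1.91) were higher in SILT. Lpl (40.4 against 81.5 CPM), Cd36 (667 against 1194 CPM) and Abca1 (281 against 449.75 CPM) were lower, at 0.496, 0.558 and 0.625 times. The background was uneven, with 6.48% of all genes higher and 22.4% lower and a median log2 ratio of -0.24. With TMM scaling that median was -0.03, 13.6% of genes were higher and 9.23% lower, and the 10 genes gave 4 higher and 2 lower; the log2 ratio of Abca1 was then -0.48. With the 3 clusters at equal weight 4 genes passed 1.5-fold, Fabp4, Fabp5, Lpl and Pparg (log2 ratio -0.67, below 10 CPM), while Cd36 (-0.48), Abca1 (-0.53) and Abcg1 (0.20) did not. Within the Lyve1, Ccl3 and Mmp13 clusters the log2 ratios were -0.41, -0.55 and -0.73 for Cd36, -0.41, -0.84 and -0.58 for Abca1 and 0.38, 0.50 and -0.10 for Abcg1. They were 1.67, 0.55 and 1.84 for Fabp5, 1.64, 0.70 and 1.44 for Fabp4 and -0.64, -1.52 and -0.86 for Lpl. The macrophage-like Fabp4 level lay within the range of the endothelial-only genes in both libraries, as given above. A single macrophage-like cell of wild-type SILT held 206 of the 806 Fabp4 UMIs. With doublets kept the log2 ratio of Lpl over all macrophage-like cells was -0.48 in place of -1.01. Lpl, Cd36 and Abca1 lay below that median and Apoe, at 1.46 times, above it.

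In Csf2-/- 1 gene differed by 1.5-fold: Lpl, at 59.6 CPM in SILT and 136 CPM in lamina propria, a ratio of 0.438 (0.380 to 0.504), with log2 ratios of -1.42, -0.53 and -0.77 in the Lyve1, Ccl3 and Mmp13 clusters. Of all genes, 2.27% were higher and 3.62% lower. Fabp5 stood at 1.499 times (1.19 to 1.90), just under the threshold. Cd36 was at 0.811 times (0.769 to 0.857) and Abca1 at 0.867 times (0.80 to 0.941). The 4 comparisons share libraries, so the tissue and genotype values are not independent. Lpl and Fabp5 took the same directions in monocyte-like cells in both genotypes: Lpl was at 57.2 against 170.2 CPM in wild type and 74.9 against 145 CPM in Csf2-/-, and Fabp5 at 86.0 against 33.1 CPM and 69.1 against 35.7 CPM. Monocyte-like cells had 1 gene higher and 4 lower in wild-type SILT (7.54% and 25.8% of all genes) and 1 higher and 1 lower in Csf2-/- SILT (3.41% and 6.59%). Endothelial-like cells had 0 tested genes past 1.5-fold in wild type (3.96% of all genes higher, 6.99% lower) and 0 in Csf2-/- (3.7% higher, 3.0% lower). In them Fabp5 was 1.31 and 1.35 times and Fabp4 1.42 and 1.29 times higher in SILT, short of 1.5-fold.

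The wider pathways were read from 9 gene lists, whose counts are descriptions. The list of TREM2 signalling and lipid-associated macrophage genes had 6 of 17 tested genes at least 1.5-fold higher and none lower in Csf2-/- than in wild-type lamina propria macrophage-like cells: Gpnmb, Lgals3, Cd9, Itgax, Lpl and Apoe. Its median log2 ratio was 0.36, against -0.04 for all genes. Cd9, a tetraspanin, was at 317 against 102 CPM (3.11 times, 2.88 to 3.35), and Lgals3, which encodes galectin-3, at 1154 against 573 CPM (2.01 times, 1.94 to 2.09). Cd9 is also an endothelial gene, at 668 against 431 CPM in endothelial-like cells of the same libraries. In those cells 2 of 10 tested genes of the list, Cd9 and Cd63, were at least 1.5-fold higher in Csf2-/- and 0 were lower. Of all genes there, 4.92% were higher and 5.35% lower. In all 4 libraries 15 of 17 or 16 of 18 tested genes of this list were at least 2-fold higher in macrophage-like than in endothelial-like cells. Over all genes the shares were 16.4%, 16.2%, 14.7% and 15.2%. The list was made of macrophage genes and holds Lpl, Apoe and Trem2, so a high count follows from its choice.

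The list of cholesterol efflux and LXR targets had 4 of 17 genes higher in Csf2-/- lamina propria (Nr1h3, Abcg1, Apoe and Apoc2) and 1 lower (Abca1). For this and the other lists of this comparison the shares over all genes are 4.50% higher and 7.94% lower, so 1 of 17 lower is near its share. Pltp, a phospholipid transfer protein whose pattern was like that of Cd36, was at 523 against 735 CPM (0.712 times, 0.678 to 0.746), and Mylip, an LXR target that encodes a ubiquitin ligase, at 81.3 against 55.8 CPM (1.46 times, 1.28 to 1.66). Of the PPAR list, 2 of 9 genes were lower (Fabp4 and Cd36) and none higher. No gene of 9 tested lipid droplet genes and none of 20 sterol synthesis genes passed 1.5-fold there. Of 17 fatty acid oxidation genes 1 was lower. Of 8 genes of the uptake and hydrolysis list, Lpl was higher and Cd36 lower. Of 8 binding and activation genes, Fabp5 and Slc27a1 were higher and Fabp4 and Acsl3 lower.

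Of the endothelial fatty acid handling list 5 of 8 tested genes were lower in Csf2-/- lamina propria macrophage-like cells, Cd36, Fabp4, Aqp1, Cav1 and Cavin1, and 1 was higher, Fabp5. In endothelial-like cells of the same libraries 3 of 12 were higher and none lower. The endothelial-only genes were also lower in that macrophage-like sum, as given above with Fabp4. Whether RNA carried over from endothelial cells has a part in these counts was not tested. Gpihbp1, which anchors LPL on capillaries, was at 99.4 against 141 CPM in endothelial-like cells (0.707 times, 0.611 to 0.815).

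In SILT 6 of 18 tested genes of the sterol synthesis list were at least 1.5-fold higher in Csf2-/- than in wild-type macrophage-like cells and none was lower, against 6.32% and 2.53% of all genes. Srebf2, Scap, Hmgcs1 and Dhcr7 were among the 6. The list's median log2 ratio was 0.30, against 0.06 for all genes. Srebf2, the master regulator of the pathway, was at 67.7 against 39.6 CPM (1.71 times, 1.48 to 1.97). Endothelial-like cells had 3 of 16 higher and 2 lower, against 10.3% and 3.52% of all genes. Between wild-type SILT and wild-type lamina propria 7 of 19 genes were lower, the same 6 genes and Stard4, and Fdps was higher. There 22.4% of all genes were lower, and the list's median log2 ratio of -0.28 was close to the -0.24 of all genes, a shift that TMM scaling reduced to -0.03. Srebf2 was at 39.6 against 72.7 CPM. Between the Csf2-/- tissues none of 19 differed by 1.5-fold.

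Between the wild-type tissues the TREM2 list had 6 of 17 genes higher in SILT (Tyrobp, Gpnmb, Lgals3, Cd9, Ctsl and Itgax) and 2 lower (Syk and Lpl), against 6.48% and 22.4% of all genes (13.6% and 9.23% with TMM scaling). The share of the Mmp13 cluster was 6.97% in lamina propria and 24.4% in SILT, and its part in these counts was not tested. Cd9 was at 267 against 102 CPM (2.62 times) and Itgax, which encodes CD11c, at 127 against 62.8 CPM (2.02 times). Endothelial-like cells had 6 of 10 genes of that list higher in SILT as well, against 3.96% of all genes. Of 9 uptake and hydrolysis genes 4 were lower in wild-type SILT, among them Lpl, Lrp1 and Cd36, against 22.4% of all genes. In Csf2-/- the TREM2 list had 3 of 18 genes higher in SILT (Spp1, Gpnmb and Ctsl) and 1 lower (Lpl), against 2.27% and 3.62% of all genes, with Ctsl, which encodes cathepsin L, at 495 against 295 CPM (1.68 times, 1.57 to 1.80).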

How the data were processed

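Single-cell 3′ libraries were made from CD11b-selected colon cells, 1 for each of the 4 groups. The deposited values are UMI counts per gene and cell barcode, made with Cell Ranger against mm10 per the submitters' processing notes (version 2.1.1) and per the file headers (version 6.0.0); which version made the counts is not settled by these sources. Nothing in the labels says that libraries hold separate animals. From the counts, barcodes with 200 or more genes and 10% or less mitochondrial UMIs were kept, doublets marked by Scrublet (in scanpy 1.11.5) were removed, and cells of the 4 libraries were clustered together (2000 variable genes without the 10 genes and pathway genes, 30 components, Leiden resolution 1). The libraries held 19225644 to 67656927 UMIs. Clusters were named from marker lists by a rule settled after the clusters were seen, and 19 of 32 were named. Mixed, shallow or poorly marked clusters stayed unnamed.

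UMIs were summed per class and library and scaled to CPM. Levels have exact Poisson intervals, ratios exact conditional binomial intervals, and shares exact (Clopper-Pearson) binomial intervals, all at 95% and for counting error only. Thresholds were 2-fold between cell types and 1.5-fold between groups, and percentages of all genes are over those at 10 CPM or more in 1 of the 2 sums. TMM factors came from edgeR 4.0.16. The scripts' ratios were tested on simulated counts. The 10 genes and the lists were chosen with earlier results of these data known. Genes outside the 10 were named by a rule: up to 2 per list with the largest ratio at 50 CPM or more and 30 UMIs, and the 3 most alike in pattern (log2 of CPM + 1). Other list genes past a threshold are named beside their count, chosen after their values were seen. Alternatives covered cell filters, doublets, clustering, scaling, thinning, carried-over RNA, cluster weights and thresholds. Some genes that the naming rule or the counts take in are not reported here by name.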

Additional observations from a re-analysis of the deposited data

Results flagged for a closer look

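Trem2 in macrophage-like cells had tissue ratios on opposite sides of 1 in the 2 genotypes. Its log2 ratio of SILT over lamina propria was 0.10 in wild type (238 CPM in lamina propria, 256 CPM in SILT) and -0.12 in Csf2-/- (305 and 282 CPM). Both counting intervals left out no change, at 1.02 to 1.13 times and 0.855 to 0.997 times. The wild-type direction depended on the choice of cells: its log2 ratio was -0.48 with the C1q and endothelial UMI gates and -0.030 without cells holding an endothelial-only UMI, where Csf2-/- had -0.30 and -0.28. Within wild type it was also mixed, with 239.9 CPM in lamina propria and 291 CPM in SILT in the Lyve1 cluster and 269 and 231 CPM in the Mmp13 cluster. Each direction rests on 1 library per tissue, and the difference between the genotypes was not tested.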

How the results depend on the processing

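The count of genes past 2-fold between macrophage-like and endothelial-like cells in every library was 5, and 6 with TMM scaling. For Csf2-/- against wild type in lamina propria the count of 8 became 5 with stricter cell filters, 3 with C1q and endothelial UMI gates, 0 with clusters at equal weight and 2 at a 2-fold threshold. In SILT the count of 2 became 1 with doublets kept, at Leiden resolution 0.5, with the 10 genes and list genes kept for clustering, with TMM scaling, without genes under 10 CPM in both sums and at 2-fold. For SILT against lamina propria the wild-type count of 6 became 3 at 2-fold, 4 with clusters at equal weight, 5 with doublets kept, list genes kept for clustering, the UMI gates, the mean of per-cell CPM or thinning, and 7 without cells holding an endothelial-only UMI. The Csf2-/- count of 1 became 2 with doublets kept, at Leiden resolution 2, with the UMI gates, TMM scaling, the mean of per-cell CPM, equal cluster weights, or without cells holding an endothelial-only UMI. It was 3 with carried-over RNA subtracted and 4 with cells thinned to 1000 UMIs. It was also 2 under both alternatives chosen after seeing the data, without barcodes found in more than 1 library and with the C4b and Vsig4 cluster counted as macrophage-like.

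Of values past 1.5-fold between groups, 3 reversed: Lpl in lamina propria between genotypes (log2 ratio -0.54 with the UMI gates), Abcg1 in the same comparison (-0.16 after thinning, on 32 and 10 UMIs) and Pparg between genotypes in SILT (-0.054 after thinning, on 5 and 2 UMIs). The cause was not tested. Among values short of 1.5-fold, sign changes beyond the counting interval were, on the log2 scale, Plin2 between genotypes in lamina propria (-0.087 with the gates), and in SILT Lpl (-0.23 with doublets kept, -0.26 at resolution 0.5, -0.086 with the gates), Fabp5 (0.11 without endothelial-only UMIs), Plin2 (-0.25 thinned) and Abca1 (0.063 with the gates). Between tissues they were, in wild type, Plin2 (0.19 with TMM), Pparg (0.69 thinned) and Trem2 (-0.48 with the gates, -0.030 without endothelial-only UMIs), and, in Csf2-/-, Abcg1 (0.77 thinned) and Apoe (-0.14 at equal weights). Of the gated cells, 66.6%, 63.6%, 32.2% and 48.6% were macrophage-like. Subtracting carried-over RNA left no Fabp4 value in some sums. No paired analysis was possible because each group has 1 library and the labels carry no replicate numbers, and for the same reason no library could be left out. Depth limits Pparg most, at 33 to 63 UMIs per macrophage-like sum.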
